A study of Mus musculus with 12 samples.

Results

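Histone transcripts were read in the total RNA of mouse bone marrow-derived macrophages, cells grown from marrow with the growth factor M-CSF. A table of 13232 genes held 18 entries whose symbols follow the older mouse naming of histone genes, beginning Hist followed by a cluster number, or H and a family number followed by f. The table mixes old and new symbols. Read on the older RefSeq symbols, the same rule takes 51 further entries, 69 in all, and these are described after the 18. Of the 18, only 6 have a symbol that begins with Hist. RefSeq gives H1f1, H1f2, H1f3, H1f4, H1f5 and H4f16 as newer names of Hist1h1a, Hist1h1c, Hist1h1d, Hist1h1e, Hist1h1b and Hist4h4. By gene identity the 18 are therefore 12 replication-dependent genes, 3 replacement genes (H1f0, H3f3a and H3f3b) and 3 others: the H3f3a pseudogene H3f3a-ps2, the intronless copy H3f3c and the antisense RNA H3f3aos.

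The 6 libraries compared came from wild-type C57B6/J mice, 3 after a normal diet (ND) and 3 after a high-fat diet (HFD). All 6 cultures received 20 ng/ml of M-CSF, were moved to serum-free medium on day 4 and were held at 1% oxygen for 1 h on day 7. The labels give no duration or composition of the diets, no age or sex, and do not say whether replicates came from separate animals, so p-values measure only the spread between these libraries. The 6 libraries of the same diets at normal oxygen were not analysed here, so nothing is said of the response to hypoxia.

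Replication-dependent histone genes are intronless, lie in clusters and are transcribed mainly in S phase, when new chromatin is assembled. Their messages end not in a poly(A) tail but in a conserved stem-loop, which is bound by the stem-loop binding protein SLBP and directs 3′ end cleavage and translation. Replacement histones are made throughout the cell cycle from ordinary polyadenylated messages; H1f0 encodes a linker histone that accumulates in cells that leave the cycle, and H3f3a and H3f3b encode the same H3.3 protein. Libraries here were made from total RNA after removal of ribosomal RNA, with no poly(A) selection named in the protocols, so both kinds of message could be sampled.

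The stem-loop sets the kinds apart and is shown for 4 replication-dependent genes and for the replacement gene H2ax, whose message is known to exist in both forms. DNA letters of the sense strand are given, with the 16 bases of the stem-loop in capitals (GENCODE M21 models on GRCm38, sense strand of each model searched). The consensus used for the search fixes the outer and inner pairs of the stem and the T bases of the loop, and leaves the middle pairs and the last loop base free.
H1f2: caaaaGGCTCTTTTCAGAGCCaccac
H1f4: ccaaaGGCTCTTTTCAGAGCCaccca
H4f16: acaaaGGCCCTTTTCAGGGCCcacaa
Hist1h4n: ctaaaGGCCCTTTTCAGGGCCatcca
H2ax: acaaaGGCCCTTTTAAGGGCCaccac
The H1f2 match lies at chr13:23739512-23739527 on the plus strand and the H1f4 match at chr13:23621782-23621797 on the minus strand. The pattern was found in 9 of the 12 replication-dependent genes of the 18, in 40 of 58 among the 69, in 1 of 8 replacement genes, and in 89 of 55450 annotated genes (0.161%). The form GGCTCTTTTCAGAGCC stood in 23 of the 41 matching histone models. A model without a match shows only that these letters are not in it. Annotated models need not end at the stem-loop. It lay 840, 1153, 2445 and 31 bases from the model end in H1f2, H1f4, H4f16 and Hist1h4n, and 822 in H2ax.

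The 5 replication-dependent linker genes and H1f0 also differ upstream of the RefSeq start. RefSeq promoters on GRCm38.p6 matched 60 of the 69 entries, and the 250 bases before the start of H1f4 (chr13:23622559-23622808, minus strand) and H1f0 (chr15:79027962-79028211, plus strand) are shown because these are the linker genes with the largest differences between diets. Capitals mark matches, on either strand, to the CCAAT box, to the TATA box in the form TATAAA, to the H1 box in the form AAACACA or to the octamer in the form ATTTGCAT. None of these overlaps another in the sequences shown.
H1f4: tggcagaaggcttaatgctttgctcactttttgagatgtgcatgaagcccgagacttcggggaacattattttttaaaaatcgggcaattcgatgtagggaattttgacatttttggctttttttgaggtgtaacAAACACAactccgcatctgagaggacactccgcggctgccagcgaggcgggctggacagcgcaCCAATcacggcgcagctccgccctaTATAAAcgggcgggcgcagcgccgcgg
H1f0: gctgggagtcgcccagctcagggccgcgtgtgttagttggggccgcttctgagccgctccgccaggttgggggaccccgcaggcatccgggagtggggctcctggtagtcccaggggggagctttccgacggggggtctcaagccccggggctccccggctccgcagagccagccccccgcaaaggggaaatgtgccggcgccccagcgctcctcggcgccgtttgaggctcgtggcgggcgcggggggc
CCAAT was present in 5 of 5 replication-dependent H1 promoters against 33.8% of 32851 promoters, TATAAA in 4 of 5 against 12.4%, and AAACACA in 4 of 5 against 6.25%. The H1f0 promoter held none of the 4 motifs in this window. The RefSeq start of H1f0 lies upstream of its M21 start at chr15:79028450. The bases next to the M21 start were therefore not searched. ATTTGCAT was found in 6 of 12 replication-dependent H2B promoters, 5 of 14 of H2A and 1 of 2 of the replacement H3 genes (H3f3b), against 1.6% of all.

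Values are normalized levels in estimated reads, that is estimated read counts divided by the library's size factor. The libraries held about 19046400 to 24491500 estimated reads, and the 69 histone entries took 0.25% to 0.315% of the signal. Rank correlations over all genes were 0.992 to 0.995 within a diet and 0.99 to 0.994 between diets. Of 8 macrophage markers all 8 were in the table, while 0 of 7 erythroid and 0 of 5 dendritic cell markers were listed there; 6 of 10 neutrophil markers were listed, with summed levels of 1712 to 2455 in ND and 2109 to 3430 in HFD. All 6 had a log2 difference above 0, with a median of 0.296, or 0.157 without ND replicate 3, and their part in the histone values was not tested. Mmp8, a neutrophil collagenase, measured 443, 462.5 and 452.3 in ND and 706.8, 1032 and 833.6 in HFD, without overlap (log2 difference 0.90, adjusted p = 0.113). Among the alternatives in which it passed the threshold were the fit without ND replicate 3 (adjusted p = 0.0196) and the fit with a weight estimated for each library (adjusted p = 0.00443). For the B cell, T cell, stromal, mast cell and progenitor lists, 1 of 6, 1 of 6, 3 of 6, 1 of 5 and 1 of 4 markers were listed, with summed levels of 1889 to 3061, 201.9 to 355.9, 177.5 to 548.6, 116.9 to 225.5 and 116.9 to 225.5 in ND and of 1876 to 2075, 98.07 to 230, 51.76 to 336.8, 72.38 to 104.4 and 72.38 to 104.4 in HFD. The single mast cell and progenitor marker is the same gene, Kit, which was lower in HFD without overlap (log2 difference -0.88, adjusted p = 0.284; -1.07 without ND replicate 3) and passed the threshold with a weight for each library (adjusted p = 0.0106). The single B cell marker, Ighm, was at -0.40 (adjusted p = 0.410) and passed both without ND replicate 3 and with library weights. The part of these in the histone values was not tested. In bulk RNA, fewer cells of a type and less RNA per cell cannot be told apart.

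ND replicate 3 stood apart for the histone genes. It had the highest value of the 6 libraries in 8 of the 12 replication-dependent genes and in 39 of the 58, against 16.6% of all genes, and it was also the shallowest library. Set medians and counts below 0 are therefore given with and without it where it moved them, as are the log2 differences of the named histone genes that it moved by over 1.5 times. No histone gene passed an adjusted p of 0.05 (limma on log2(value + 1), Benjamini-Hochberg over 13232 genes), and neither did any other gene (0%); 1401 genes (10.6%) had an unadjusted p under 0.05, among them 5 of the 18 entries, all 5 lower in HFD, as were 5.18% of all genes. The differences described next are therefore values and not calls.

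Most replication-dependent histone transcripts were lower in HFD than in ND macrophages, by a modest amount. Of the 12, 11 had a log2 difference (HFD minus ND) below 0, against 51.1% of all genes, and their median was -0.221 against -0.003 for all genes. The 3 whose HFD values all lay below their ND values were the linker histone genes H1f2, H1f3 and H1f4; 7.07% of all genes showed that separation. The summed level of the 12 was 11630, 11366 and 14034 in the 3 ND libraries and 10149, 10425 and 10319 in the 3 HFD libraries, with no overlap and a ratio of HFD to ND of 0.834. Without ND replicate 3 the ratio was 0.896, 10 of the 12 were below 0 (50.8% of all genes) and the median was -0.083. Most of the summed level of the 12 came from the linker genes H1f1 to H1f5. These 5 summed to 9467, 9257 and 11286 in ND and 8221, 8286 and 8198 in HFD. The core histone entries of the 12, each taken alone, overlapped between diets.

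**Figure D1:**
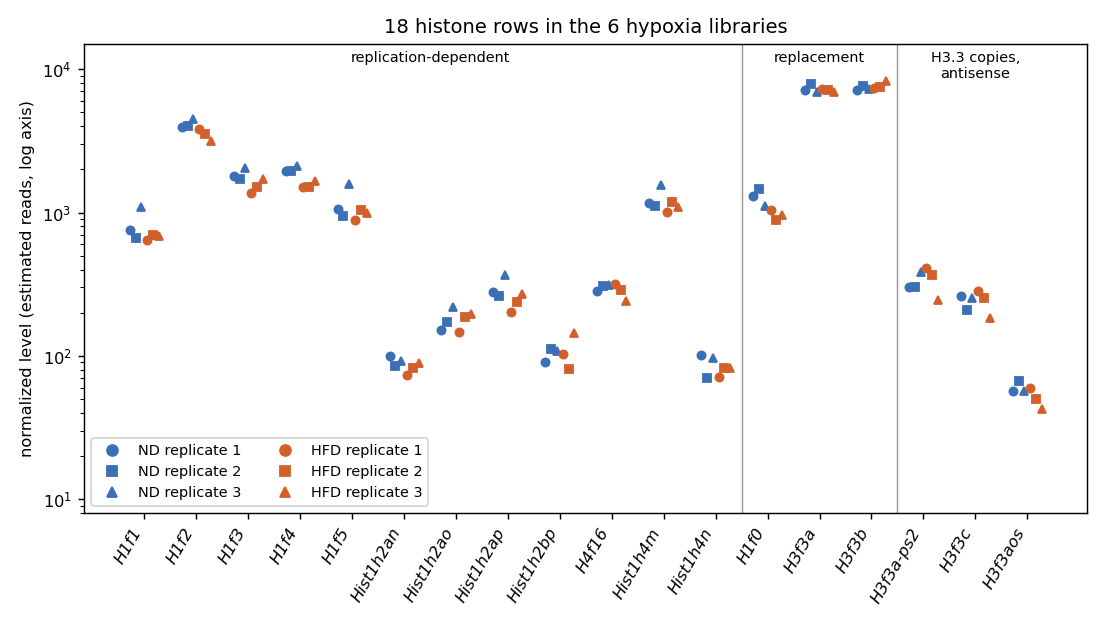
Normalized level (estimated reads, log axis) of the 18 histone entries in each of the 6 hypoxia libraries, ND in blue and HFD in orange, with 1 point per library and a symbol per replicate. H1f2, H1f3, H1f4 and H1f0 are separated by diet, while the H3.3 genes H3f3a and H3f3b overlap between diets, all between 6930 and 8313.

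Linker histone H1 binds DNA where it enters and leaves the nucleosome and compacts the fibre. H1f4 (Hist1h1e), at chr13:23620629-23622558 on the minus strand, measured 1950, 1946 and 2095 in ND and 1505, 1504 and 1667 in HFD. Each HFD library lay below each ND library, with means of 1997 ± 84.9 and 1558 ± 93.8 (SD, n = 3 each). The log2 difference was -0.36 (SE 0.07, adjusted p = 0.181); without ND replicate 3 it was -0.32 (adjusted p = 0.0555), and over the alternatives the adjusted p ranged from 0.00674, with a weight estimated for each library, to 0.860. The annotated model of H1f4 runs past its stem-loop into Hist1h2be on the same strand, and 28.39% of its 75-base windows also occur in other genes, so part of its value may be shared with them.

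H1f2 (Hist1h1c), at chr13:23738808-23740367, was the most abundant replication-dependent entry per length, with a mean of 5258 estimated reads per kilobase over the 6 libraries. It measured 3924, 3993 and 4474 in ND and 3821, 3523 and 3138 in HFD. The diets did not overlap, but HFD replicate 1 lay close to ND replicate 1, and the log2 difference was -0.24 (SE 0.08, adjusted p = 0.361). H1f3 (Hist1h1d), at chr13:23553262-23560686, measured 1785, 1715 and 2049 in ND and 1366, 1518 and 1711 in HFD. Its highest HFD value was just below its lowest ND value, and the log2 difference was -0.27 (SE 0.10, adjusted p = 0.365). Without ND replicate 3 the differences were -0.18 for H1f2 and -0.20 for H1f3.

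In H1f1 and H1f5 the difference came mostly from ND replicate 3. H1f1 (Hist1h1a) measured 749.4, 661 and 1089 in ND and 642.2, 696.7 and 691 in HFD. H1f5 (Hist1h1b) measured 1059, 942.6 and 1579 in ND and 886.9, 1045 and 990.7 in HFD. In both genes the other ND libraries fell within or next to the HFD range, and the log2 differences of -0.27 (adjusted p = 0.597) and -0.26 (adjusted p = 0.623) became -0.06 and -0.04 without that library. Neither gene shares a 75-base window with another gene. Summed over H1f1 to H1f5, the level was 9467, 9257 and 11286 in ND and 8221, 8286 and 8198 in HFD. The HFD libraries agreed closely with one another and all lay below ND, at a ratio of 0.823, or 0.88 without ND replicate 3.

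The core histone entries with a Hist symbol, together with H4f16, overlapped between diets in every entry. Hist1h4m, an H4 gene, measured 1162, 1105 and 1551 in ND and 1016, 1181 and 1097 in HFD (log2 difference -0.20, adjusted p = 0.610). ND replicate 3 was far above the other libraries, HFD replicate 1 was the lowest, and without ND replicate 3 the difference was -0.05. H4f16 (Hist4h4), an H4 gene on chr6, measured 282.4, 306.1 and 310.6 in ND and 317.2, 288.5 and 242.4 in HFD, with overlapping diets (log2 difference -0.09, adjusted p = 0.824). Hist1h2ap, an H2A gene, measured 277, 260.2 and 369.3 in ND and 201.2, 236.7 and 272 in HFD. HFD replicate 3 lay within the ND range, and the difference was -0.35 (SE 0.15, adjusted p = 0.471), or -0.19 without ND replicate 3. Its near-copy Hist1h2ao measured 150.4, 171.9 and 220.1 in ND and 146, 187.9 and 194.7 in HFD, almost the same in both diets (-0.03, adjusted p = 0.968), and higher in HFD by 0.12 without ND replicate 3.

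Hist1h2bp was the one replication-dependent entry of the 12 that was not lower in HFD. This H2B gene measured 90.67, 111.4 and 108.6 in ND and 103.6, 80.63 and 143.4 in HFD, and the diets overlapped fully (log2 difference 0.04, or 0.08 without ND replicate 3, adjusted p = 0.962 with all libraries). Hist1h2an, an H2A gene, measured 99.98, 84.92 and 92.74 in ND and 73.11, 81.77 and 89.49 in HFD (-0.18, or -0.11 without HFD replicate 1, adjusted p = 0.713 with all libraries). Hist1h4n, an H4 gene, measured 101.4, 69.59 and 96.29 in ND and 71.57, 82.16 and 81.64 in HFD (-0.17, adjusted p = 0.793), and the difference was -0.10 without ND replicate 3. Split by symbol alone, the 6 Hist entries had a median of -0.174 with 5 below 0, and the other 12 symbols a median of -0.243 with 10 below 0. When ND replicate 3 was left out the medians were -0.074 and -0.068, with the order turned round.

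Many histone genes are near-identical copies, so a 75-base read cannot always be given to 1 of them, and their deposited values were seldom whole reads. Over all genes, 57.8% of values between 5 and 1000 were whole multiples of 1 read (within 0.02 of a read). In the 9 histone entries with no 75-base window in common with another gene the share was 71.1% (27 of 38 values). It was 8.78% (13 of 148) in the 35 entries with some but at most 50% shared windows and 4.17% (5 of 120) in the 25 above 50%. Shares of windows were taken over whole M21 models, and a model that runs far past its stem-loop can lower the share. In H2ac6, with 11.09% shared, the model holds 2482 bases and the RefSeq span 487. Hist1h2ao and Hist1h2ap share 93.1% and 92.65% of their windows, and Hist1h4m and Hist1h4n share 89.02% and 83.43% with other genes, so single values of these entries are uncertain. Summed, Hist1h2ao and Hist1h2ap gave 427.4, 432.1 and 589.5 in ND and 347.2, 424.6 and 466.7 in HFD, with overlapping diets. Replication-dependent entries with up to 50% shared windows had a median of -0.212 (33 of 35 below 0) and those above it -0.184 (21 of 23 below 0). These were -0.065 (24 of 35) and -0.049 (15 of 23) without ND replicate 3.

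Among the replacement histones of the 18, H1f0 was lower in HFD and the H3.3 genes had differences near 0. H1f0, at chr15:79028450-79030504 on the plus strand, measured 1309, 1459 and 1106 in ND and 1035, 879.8 and 957 in HFD. The diets did not overlap, with means of 1291 ± 177 and 957 ± 77.9 (SD, n = 3 each). Here ND replicate 3 was the lowest ND library, the reverse of its place in the replication-dependent genes. The log2 difference was -0.43 (SE 0.10, adjusted p = 0.260). Without ND replicate 3 H1f0 passed the threshold, at -0.53 (adjusted p = 0.0228), as did 233 genes (1.76%), 0.537% of all genes in its direction. Over the alternatives its adjusted p ranged from 0.00821 to 0.879. H1f0 shares no 75-base window with another gene.

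H3f3a measured 7108, 7849 and 6930 in ND and 7262, 7113 and 6968 in HFD. H3f3b measured 7216, 7609 and 7262 in ND and 7356, 7497 and 8313 in HFD. The diets overlapped in both genes, with log2 differences of -0.03 (SE 0.07, adjusted p = 0.894) and 0.07 (SE 0.07, adjusted p = 0.772). For H3f3a it was -0.07 without ND replicate 3. Per kilobase of exon the mean levels were 2056 for H3f3a and 2534 for H3f3b, against 490 for H1f0. The summed H3.3 level was 14323, 15458 and 14192 in ND and 14618, 14611 and 15281 in HFD, a ratio of 1.01.

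The remaining 3 entries belong to H3f3a by sequence or position. H3f3a-ps2, a processed pseudogene on chr16, measured 303.9, 301.2 and 386.1 in ND and 408.5, 365.1 and 243.4 in HFD (log2 difference 0.01, adjusted p = 0.988). H3f3c, an intronless copy on chr2, measured 261.1, 208.7 and 255.2 in ND and 283.4, 253.9 and 182.5 in HFD (-0.03, adjusted p = 0.972). The differences without ND replicate 3 were 0.13 for H3f3a-ps2 and 0.02 for H3f3c. They share 77.74% and 59.94% of their windows with other genes, so reads of other H3.3 copies could be counted there. H3f3aos, an antisense RNA overlapping the start of H3f3a at chr1:180813776-180816859, measured 56.88, 66.49 and 56.44 in ND and 59.71, 50.18 and 42.68 in HFD (-0.24, adjusted p = 0.708). The difference of H3f3aos was -0.36 without HFD replicate 1 and -0.12 without HFD replicate 3. The library kit keeps strand, but whether counting used it is not given in the sources used here, so reads of this RNA and of H3f3a cannot be told apart where they overlap.

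The 51 entries under newer symbols were also mostly lower in HFD, 47 of them with a log2 difference below 0, or 32 without ND replicate 3. They add 46 replication-dependent genes and 5 replacement genes. Of the 58 replication-dependent genes now covered, 54 were below 0 with a median log2 difference of -0.197, 0 passed the threshold, and 15 had an unadjusted p under 0.05 (10.6% of all genes). In 10 every HFD value lay below every ND value (17.2%, against 7.07% of all genes), and in 1 every HFD value lay above (7.44% of all genes). Without ND replicate 3, 39 of the 58 were below 0, the median was -0.063, and 11 were separated downward, against 18.2% of all genes. HFD replicate 1 was the lowest library in 33 of the 58, against 1673 of 13232 genes. Without it, 43 of the 58 were below 0. The summed level of the 58 was 40141, 38165 and 48616 in ND and 34127, 37270 and 38422 in HFD. Unlike the sum of the 12 it overlapped between diets, at a ratio of 0.865, or 0.935 without ND replicate 3.

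**Figure D2:**
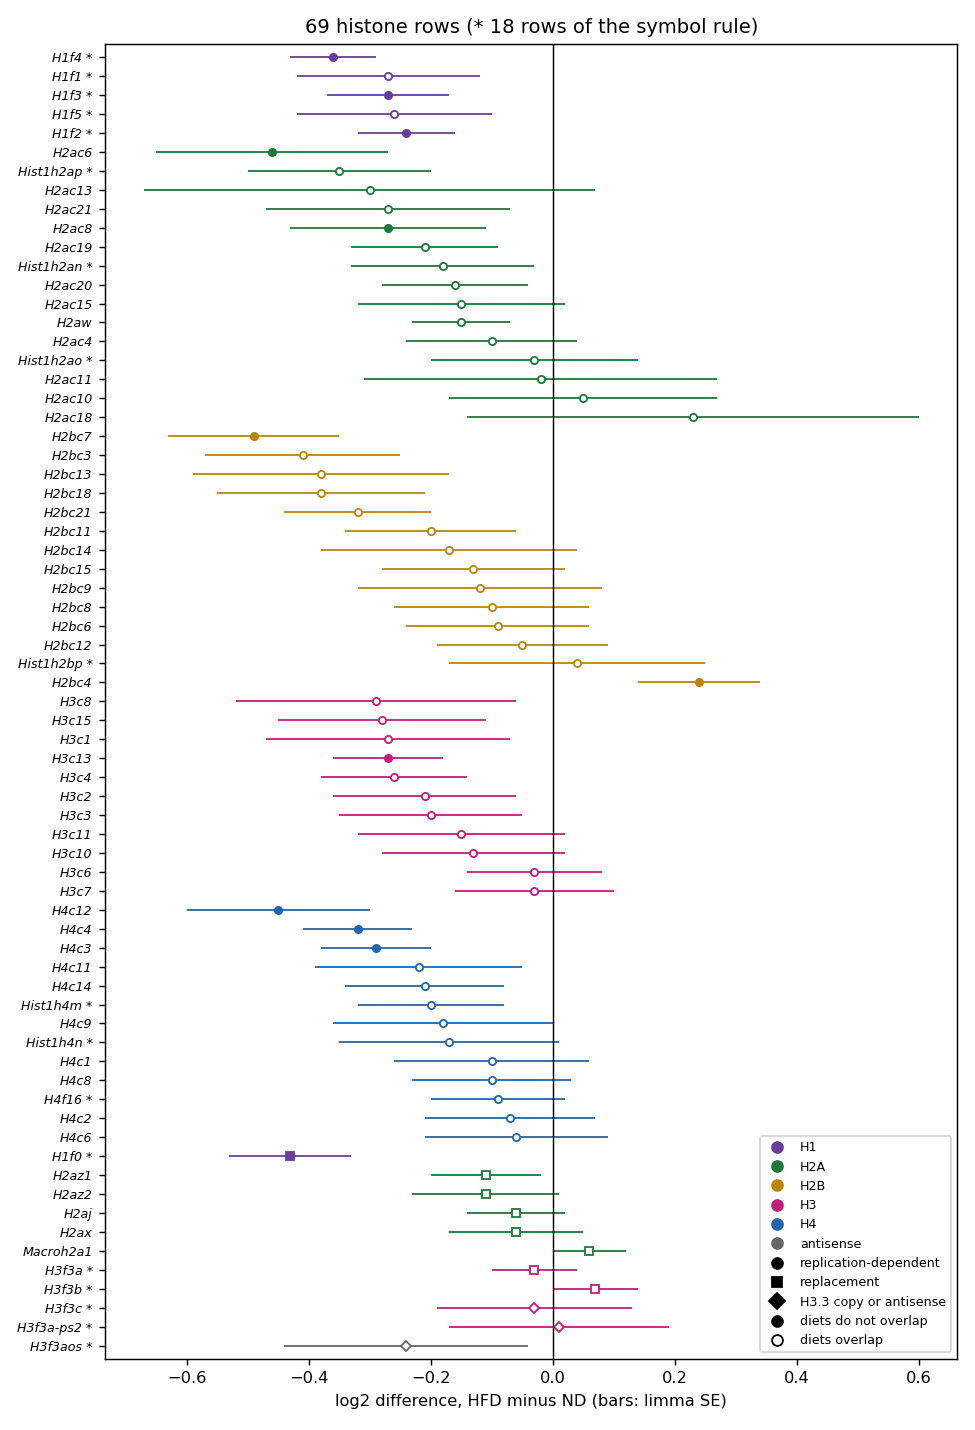
Log2 difference between diets (HFD minus ND, limma estimate with its SE as bars) for all 69 histone entries, coloured by histone family, with filled symbols where the diets did not overlap and an asterisk on the 18 chosen by symbol. Most replication-dependent genes lie left of 0, H2bc4 lies to the right without overlap, and the replacement genes other than H1f0 lie close to 0.

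All 5 core and linker families had a median below 0. The medians were -0.267 for H1 (5 of 5 below 0), -0.164 for H2A (13 of 15), -0.153 for H2B (12 of 14), -0.209 for H3 (11 of 11) and -0.183 for H4 (13 of 13). Leaving out ND replicate 3 gave -0.185 for H1 (5 of 5), -0.049 for H2A (10 of 15), -0.116 for H2B (9 of 14), -0.061 for H3 (7 of 11) and -0.059 for H4 (8 of 13). Summed by family, only H1 and H4 did not overlap between diets, and in H4 the margin was a single unit (ND replicate 2 at 8818, HFD replicate 2 at 8817). H2B and H3 were ordered by library more than by diet: in both, HFD replicate 1 was the lowest (4310 and 7594) and HFD replicate 3 was above at least 2 ND libraries (5998 and 9832).

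**Figure D3:**
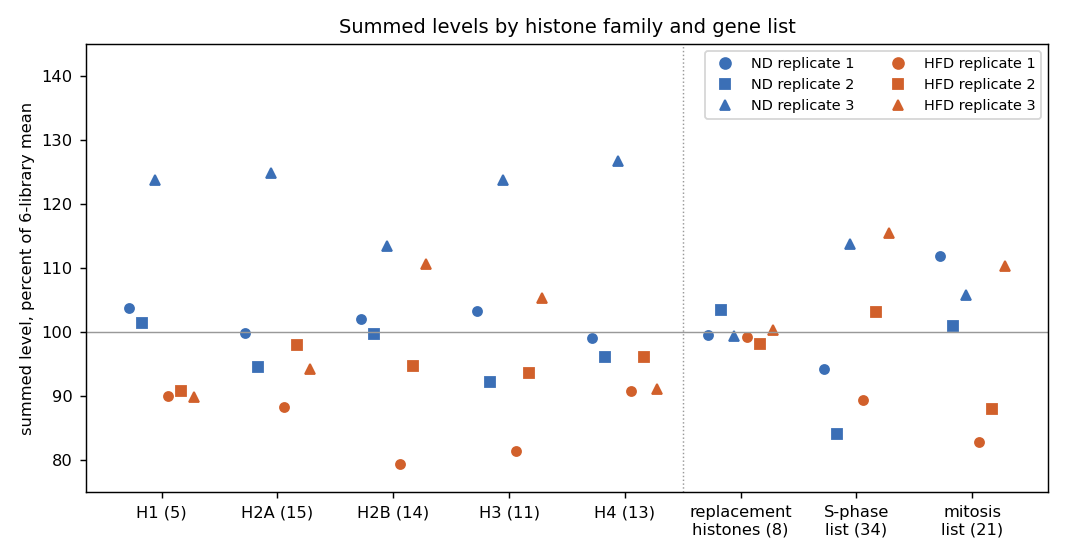
Summed level of each replication-dependent family, of the 8 replacement histones and of the S-phase and mitosis gene lists in each library, as a percentage of that set's mean over the 6 libraries (number of genes in brackets). ND replicate 3 is the highest library in all 5 families, at 113.5% to 126.7%, while the replacement histones stay between 98.2% and 103.4%.

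Among single genes outside the 18, H2bc7, an H2B gene, had the lowest log2 difference at -0.49 (SE 0.14, adjusted p = 0.301). It measured 400.5, 378.9 and 451.7 in ND and 233.4, 296.3 and 354.9 in HFD. H4c4, among the most abundant H4 entries, measured 1821, 1947 and 2252 in ND and 1508, 1552 and 1742 in HFD (-0.32, adjusted p = 0.284). H3c13, an H3 gene, measured 1796, 1655 and 2055 in ND and 1483, 1621 and 1449 in HFD (-0.27, adjusted p = 0.324). These 3 did not overlap between diets. The share of their windows found in other genes was 56.59% for H2bc7, 3.67% for H4c4 and 78.50% for H3c13.

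Another 4 entries, of families H2A and H4, were also lower in HFD without overlap. H2ac6 measured 122.9, 122.3 and 147.7 in ND and 71.65, 102 and 114.9 in HFD (log2 difference -0.46, or -0.27 without HFD replicate 1, adjusted p = 0.422 with all libraries). H4c12 measured 693.1, 549.8 and 726.3 in ND and 380.2, 542.9 and 524 in HFD (-0.45, or -0.29 without HFD replicate 1, adjusted p = 0.340 with all libraries). H4c3 measured 706.6, 745.6 and 876.4 in ND and 623.4, 607.4 and 666.4 in HFD (-0.29, adjusted p = 0.319). In H4c12 the margin between diets was narrow and 68.07% of windows are shared. In H4c3 the margin was wider and 16.89% are shared, over a model of 820 bases against a RefSeq span of 375. H2ac8 measured 96.43, 100.4 and 97.69 in ND and 86.9, 67.74 and 91.9 in HFD (-0.27, or -0.13 without HFD replicate 2, adjusted p = 0.606 with all libraries). The most abundant H2A entry, H2ac19, measured 2419, 2207 and 3139 in ND and 2130, 2433 and 2080 in HFD, with overlap (-0.21, or -0.06 without ND replicate 3, adjusted p = 0.588 with all libraries), and all of its windows are shared with other genes.

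H2bc4, an H2B gene, was the exception in the other direction. Its annotated model has 2 exons and no match to the stem-loop. It measured 436.7, 494.8 and 460.4 in ND and 520.3, 620.5 and 512.8 in HFD, without overlap (log2 difference 0.24, SE 0.10, adjusted p = 0.411). With a weight for each library, 7 of the 69 passed the threshold, against 8.56% of all genes: H1f0, H1f4, H2bc7, H2bc3, H2bc18 and H4c4 lower (4.02% of all genes were called lower) and H2bc4 higher (4.54% higher). H2bc3 measured 409.2, 412.5 and 464.1 in ND and 257.9, 306.6 and 423.8 in HFD. H2bc18 measured 495.3, 487.1 and 443.2 in ND and 285.7, 342.6 and 489.5 in HFD. In both of these H2B genes HFD replicate 3 lay within the ND range.

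The 5 replacement genes added by older symbol had log2 differences between -0.11 and 0.06, with overlapping diets. H2az1, which encodes the main H2A.Z variant, measured 2064, 1755 and 2242 in ND and 1903, 1857 and 1828 in HFD (log2 difference -0.11). H2ax, the variant phosphorylated at DNA breaks, was at -0.06, H2aj at -0.06, H2az2 at -0.11 and Macroh2a1, the macroH2A variant of silent chromatin, at 0.06, with adjusted p of 0.705 to 0.881 over the 5. Leaving out ND replicate 3 gave -0.03 for H2az1, 0.07 for H2ax and -0.01 for H2aj. Over all 8 replacement genes the median was -0.062 with 6 below 0, or -0.022 with 5 below 0 without ND replicate 3, and their summed levels overlapped at a ratio of 0.985.

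Genes that make and handle histone messages were not lower in HFD as a group. Of 14 genes of histone mRNA transcription and processing 13 were in the table, 5 of them below 0, with a median of 0.049 and none with an unadjusted p under 0.05. Only 3 of the 13 were below 0 without ND replicate 3, and the median was again 0.049; 2 were then above ND without overlap, against 17.7% of all genes. Slbp, whose protein binds the stem-loop, measured 703.4, 679.5 and 801.8 in ND and 676.4, 734 and 693 in HFD (log2 difference -0.05, adjusted p = 0.866). Npat, the coactivator of histone gene transcription, measured 703.5, 798.9 and 597.5 in ND and 655.9, 665.9 and 724.6 in HFD (-0.03, adjusted p = 0.948). The diets overlapped in both.

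Of 24 histone chaperone genes 13 were below 0, with a median of -0.018, and 2 had an unadjusted p under 0.05 (10.6% of all genes). Leaving out ND replicate 3 gave 11 of 24 below 0 and a median of 0.012. The diets did not overlap in 3 of the 24, 2 lower (7.07% of all genes) and 1 higher (7.44%). Ubn1, a subunit of the HIRA complex that deposits H3.3, measured 2725, 2667 and 2480 in ND and 2432, 2220 and 2228 in HFD, without overlap (log2 difference -0.19, adjusted p = 0.356, or 0.0241 with a weight for each library). Vps72, which handles H2A.Z, measured 764.6, 779.6 and 775.1 in ND and 745.3, 746.1 and 703.7 in HFD (-0.08, adjusted p = 0.714). Nap1l4, a chaperone of the nucleosome assembly protein family, measured 1102, 1116 and 1174 in ND and 1209, 1235 and 1237 in HFD (0.12, adjusted p = 0.547).

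Since replication-dependent histone messages accumulate in S phase, replication genes were set beside them. Of 34 S-phase genes 19 were below 0, with a median of -0.013 and none with an unadjusted p under 0.05. Only 7 of the 34 were below 0 without ND replicate 3, with a median of 0.091. Pcna, the sliding clamp of DNA polymerase, measured 7140, 6808 and 9824 in ND and 8372, 9867 and 10502 in HFD (log2 difference 0.29, adjusted p = 0.503). The difference of Pcna without ND replicate 3 was 0.45 (adjusted p = 0.0504), and with a weight for each library it passed the threshold as higher in HFD (adjusted p = 0.0325). Mcm5, a subunit of the replicative helicase, measured 758.3, 662 and 927 in ND and 698.9, 822.2 and 1034 in HFD (0.12, adjusted p = 0.834). Rrm2, a subunit of ribonucleotide reductase, measured 683.1, 510.5 and 789.6 in ND and 573, 653.9 and 845.5 in HFD (0.07, adjusted p = 0.921). The diets overlapped in all 3.

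All 21 mitosis genes were below 0 (51.1% of all genes), with a median of -0.236, and 8 had an unadjusted p under 0.05 (5.18% of all genes in this direction); without ND replicate 3, 20 were below 0 (50.8%) and the median was -0.189. HFD replicate 1 was the lowest library in 15 of the 21, against 1673 of 13232 genes. The summed level overlapped between diets, at 19457, 17558 and 18383 in ND and 14414, 15295 and 19191 in HFD. With a weight for each library 7 of the 21 passed the threshold, against 8.56% of all genes (4.02% lower). Cenpa, the centromeric H3 variant, measured 1832, 1893 and 1549 in ND and 1441, 1140 and 1143 in HFD, without overlap (log2 difference -0.51, SE 0.11, adjusted p = 0.197). Without ND replicate 3 Cenpa passed the threshold, at -0.59 (adjusted p = 0.0293), and its adjusted p with a weight for each library was 0.00630. Birc5, which encodes survivin of the chromosomal passenger complex, measured 342.2, 335.3 and 373.2 in ND and 294.6, 261.5 and 306.9 in HFD (-0.28, adjusted p = 0.353, or 0.0357 with a weight for each library). Mki67 and Top2a, proliferation markers, overlapped between diets at -0.11 (adjusted p = 0.837) and -0.07 (adjusted p = 0.866).

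Relative to the S-phase list, the summed histone level was lower in HFD, by a margin that narrowed when Pcna was left out. The summed level of the 58 replication-dependent genes divided by that of the 34 S-phase genes was 1.56, 1.66 and 1.56 in ND and 1.39, 1.32 and 1.21 in HFD. The means were 1.59 ± 0.0576 and 1.31 ± 0.0896 (SD, n = 3 each), a ratio of 0.823, or 0.815 without ND replicate 3, so this value did not hang on that library. Pcna alone made up 27.7% to 34.9% of the S-phase sum. With Pcna left out, the ratio for the 58 was 2.15, 2.35 and 2.28 in ND and 2.12, 2.03 and 1.82 in HFD, with HFD replicate 1 just below ND replicate 1. For the 12 alone the ratio was 0.451, 0.494 and 0.45 in ND and 0.414, 0.369 and 0.326 in HFD, and with Pcna left out the diets overlapped. Against the 21 mitosis genes the ratio for the 58 was 2.06, 2.17 and 2.64 in ND and 2.37, 2.44 and 2 in HFD, with full overlap. These ratios were formed after the values were seen and carry no test.

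**Figure D4:**
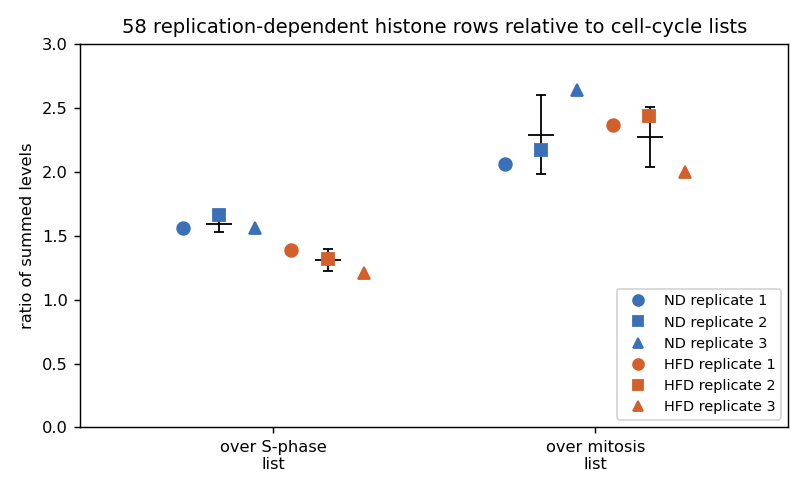
Ratio of the summed level of the 58 replication-dependent histone genes to that of the S-phase list and of the mitosis list in each library, with mean and SD (n = 3) as black bars. Over the S-phase list the HFD libraries lie at 1.21 to 1.39, below the ND libraries at 1.56 to 1.66, and over the mitosis list the diets overlap.

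Other RNAs without a poly(A) tail were read as a check of how libraries sampled such RNA. Of 11 listed, 9 were in the table, 7 of them below 0, with a median of -0.093 and none with an unadjusted p under 0.05. Only 3 of the 9 were below 0 without ND replicate 3, with a median of 0.021. Rn7s1 and Rn7s2, copies of 7SL RNA, held nearly the same values and are not independent entries. ND replicate 3 was the highest library in 7 of the 9, as it was in most replication-dependent histone genes, and the part of this in the histone values was not tested. Rn7sk, the 7SK RNA, measured 266509, 317028 and 297124 in ND and 283835, 276646 and 250680 in HFD, with overlapping diets.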

How the data were processed

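Total RNA (100 ng, RNA integrity number over 9) was depleted of ribosomal RNA, made into strand-keeping libraries and read as single 75-base reads, per the labels' protocols. The submitters' processing notes name STAR, Partek and mm10, without versions; the annotation and the counting of shared reads are not given in the sources used here. The authors deposited 1 signal table, read from its values as estimated read counts divided by a size factor per library, not raw counts. Since 57.1% to 58.4% of values per library were whole reads, no count test was run, although the design allowed for one. The labels name ND as the diet other than HFD, so NC in a column name was read as ND and its number as the replicate.

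The 3 HFD and 3 ND hypoxia libraries were compared with limma 3.58.1 (R 4.3.3), with a mean-variance trend, on log2(value + 1), two-sided, with Benjamini-Hochberg adjustment over 13232 genes; a filter at a mean of 1 removed none. Log2 differences are on this scale and understate changes of low genes. The fit was tested on simulated data. It called 41.2% of genes given a log2 change of 0.5 and 87% of those given a change of 1. The differences of the 69 histone entries, from -0.49 to 0.24, were smaller, so changes of their size could be missed. The lowest value among the 18 entries stood for 47 estimated reads; without molecular identifiers, reads are not independent molecules. Names were matched through RefSeq synonyms to GENCODE M21 (all 69 matched); levels per length use the RefSeq span for single-exon genes and merged exons otherwise. The design's split by symbol put H1f1 to H1f5 and H4f16 with the replacement genes, and the split by gene identity was added after the data were seen. Values per library are given for all 18 entries and for those of the 51 whose diets do not overlap or that pass the threshold in an alternative; of the histone processing, chaperone, S-phase and mitosis lists, for genes whose diets do not overlap and a few set genes. H2az1, H2ac19, Rn7sk, Mmp8, Kit and Ighm were added after their values were seen. The members and lists were chosen with earlier results of these data known. The alternatives were other pseudocounts, filters, scalings, no trend, library weights, a replicate block, each library left out, near-identical copies left out, and Pcna left out of the S-phase sum.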

Additional observations from a re-analysis of the deposited data

How the results depend on the processing

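With a weight estimated for each library (0.441 for ND replicate 3, 3.09 for HFD replicate 2), 1133 genes passed the threshold in place of 0 (1401 had an unadjusted p under 0.05). These held 7 of the 69 histone entries, 1 of the 12 replication-dependent ones and 2 of the 12 entries without a Hist symbol, and the median of the 8 replacement genes was -0.023. Under the same weights 13 of the 69 entries changed sign, 11 of them replication-dependent, which left 47 of the 58 below 0. Among the named genes sign changed in H3f3c (0.021), Hist1h2ao (0.135), Hist1h2bp (-0.117), H2aj (0.036) and Slbp (0.018). The replicate number as a block gave 31 genes and no histone entry; same-numbered libraries shared no deviation (residual correlations -0.00865, -0.0374 and -0.000687, and 0 of 6 libraries correlated best with its own number), and the libraries were treated as unpaired.

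Leaving out each library in turn gave 0 to 233 genes (233 when ND replicate 3 was left out, 2 for HFD replicate 1 and 1 for ND replicate 2), 0 to 1 of the 69 entries (H1f0, without ND replicate 3), and 0 to 1 among the entries without a Hist symbol. Medians ran from -0.309 to -0.083 for the 12 replication-dependent genes, from -0.267 to -0.063 for the 58 and from -0.09 to -0.018 for the 8 replacement genes, the last value without HFD replicate 3. The number below 0 ran from 10 to 12 of the 12 and from 39 to 55 of the 58. Among these fits 28 of the 69 entries changed sign at least once, 23 of them replication-dependent; among the named genes sign changed in H3f3a (-0.07 to 0.019), H3f3a-ps2 (-0.138 to 0.234), H3f3c (-0.159 to 0.157), H4f16 (-0.178 to 0.015), Hist1h2ao (-0.153 to 0.12), Hist1h2bp (-0.173 to 0.239), H2ax (-0.164 to 0.07), H2az2 (-0.22 to 0.011), Slbp (-0.1 to 0.019), Npat (-0.137 to 0.072), Mki67 (-0.294 to 0.023), Mcm5 (-0.032 to 0.251), Rrm2 (-0.107 to 0.207), Top2a (-0.187 to 0.012). Of 750 values for 50 named genes under 15 alternatives, 703 kept direction and side of the threshold, 27 changed sign and 20 passed the threshold anew. Pseudocount, filters, scaling, the trend and leaving out near-identical copies changed no call. The causes were not tested. Depth limits the lowest entries and shared reads limit single copies.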
